A study of Mus musculus with 9 samples.

Results

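The genes of the cytosolic ribosomal proteins were measured in whole mouse retina with and without the tumour suppressor Rb. They were taken by symbol from the annotation of the array: every Rpl and Rps symbol of a numbered ribosomal protein or of its close paralog, together with Rplp0, Rplp1, Rplp2 and Rpsa, without pseudogene symbols and without the kinases named Rps6k. Of 72 symbols that fitted, 35 had a probe set that listed 1 gene only, and these 35 genes, among 24202 genes measured, are the members described here. The other 37 symbols stood only on probe sets that listed several genes and are given as a class, without names. Of the 35 members, 20 encode proteins of the large subunit or paralogs of them and 15 proteins of the small subunit or paralogs of them.

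The cytosolic ribosome is built in the nucleolus from ribosomal RNA and from one copy of nearly every ribosomal protein, the small subunit reading the mRNA and the large subunit joining amino acids. Most mRNAs of ribosomal proteins begin with a run of pyrimidines, the TOP element, through which growth signals set their translation. Growing and dividing cells make more ribosomes than resting ones, and Rb is known to restrain both the cell cycle and the RNA polymerases that make ribosomal and transfer RNA.

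All retinas were collected at postnatal day 8 from mice of the mixed strain C57Bl/6x129SvJ, and RNA of each was hybridized to 1 Affymetrix array. The groups were Rb/p107 double knockout (DKO), Rb knockout (Rb KO) and wild type (WT), with 3 arrays each and 9 in all, which the series design calls biological replicates. How the genes were deleted, and in which retinal cells, was not given in the sources used here. Values are log2 intensities after robust multi-array averaging, so a difference of 1 is a doubling of intensity, and a gene was read at its brightest probe set. Differences between groups are log2 fold changes from limma with their standard error (SE), 3 arrays a group. A gene rose or fell where the Benjamini-Hochberg adjusted p over all 24202 genes was under 0.05. These p-values measure the spread between these arrays.

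Nearly all genes of chromosomes 1, 2 and 3, where the RefSeq table places 3, 4 and 2 coding genes of these proteins, were not analysed here (16, 19 and 10 genes placed there were measured), nor was p107 itself (Rbl1). A reading was taken as above background where it exceeded the level under which 95% of the negative controls of its array lay, which was 7.94 to 8.50. Rb1 read 9.74 to 10 in DKO, 9.85 to 10.02 in Rb KO and 10 to 10.46 in WT at its brightest probe set, a log2 fold change of -0.36 (SE 0.117, limma adjusted p = 0.0422) in DKO against WT and of -0.31 (SE 0.117, limma adjusted p = 0.0791) in Rb KO against WT. Markers of rods, the most abundant cells of the retina, were above background in 14 of 14 genes. They averaged 9.55 to 10.37 in DKO, 9.58 to 10.37 in Rb KO and 11.49 to 11.53 in WT, and all 14 fell in both mutants. All 10 markers of cycling cells rose in both. In whole retina, fewer cells of a type and less RNA per cell cannot be told apart.

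Some arrays stood apart from their group in these genes. WT replicate 3 gave the lowest WT reading in 29 of the 35 members, while among all genes whose mean was over 9 it was the lowest of WT in 54.0%. DKO replicate 2 gave the lowest DKO reading in 30 of 35, against 49.1% of such genes. DKO replicate 1 gave the highest DKO reading in 30 of 35 members and the highest of all 9 arrays in 20. Rb KO replicate 1 gave the highest Rb KO reading in 24. For highest readings the share over all genes was not computed. DKO replicate 2 also read 5.47 for Xist, the RNA of the inactive X chromosome, against 11.98 and 12.04 in the other DKO arrays. Log2 fold changes of 4 measured sex-linked genes ran from -1.84 to 1.39 in DKO against WT and from -0.02 to 0.38 in Rb KO against WT. The 4 genes averaged 6.55 to 7.84 in DKO, 6.60 to 6.67 in Rb KO and 6.47 to 6.64 in WT. None of the 4 passed. For Xist the DKO readings lay far apart, so not passing does not show that the arrays were alike in sex. The lens markers of DKO replicate 2 averaged 9.04, the highest of the 9 arrays. The mean over the 35 members was 9.62, 9.49 and 9.58 in DKO replicates 1 to 3, 9.56, 9.51 and 9.48 in Rb KO and 9.48, 9.46 and 9.32 in WT. The group means were 9.56 ± 0.071 in DKO, 9.52 ± 0.041 in Rb KO and 9.42 ± 0.088 in WT (SD, n = 3 each).

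Ribosomal protein genes differed little in size between mutant and WT retinas, and no member changed by more than 0.50 on the log2 scale. In DKO against WT 10 members rose, 1 fell and 24 did not pass. Among all genes tested 29.4% were called, 12.2% as higher and 17.2% as lower, so the share of members called, 31.4%, was near the background, while the 28.6% that rose stood above and the 2.86% that fell below it. In Rb KO against WT 5 members rose, 1 fell and 29 did not pass. There the background was 24.4%, 10.2% higher and 14.3% lower, against 17.1% of members called, 14.3% higher and 2.86% lower. The members' share of rises in Rb KO was therefore close to that of all genes. The 2 comparisons share the WT arrays and are not independent. Members were brighter than most genes, which were taken without a filter. Of all genes 27.2% to 36.4% were above the level of the negative controls per array, while 23 of the 35 members were so in all 9 arrays. No share or median over genes of like brightness is given here or below.

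The median log2 fold change over the 35 members was 0.17 in DKO against WT, beside -0.06 over all genes, and 0.10 in Rb KO against WT, beside -0.05 over all genes. The difference was above 0 in 27 of 35 members in each mutant, against 37.6% of all genes in DKO and 38.3% in Rb KO. Arrays of the groups did not overlap, with DKO higher than WT, in 16 members (17.4% of all genes) and with DKO lower in 3 (26.5% of all genes). For Rb KO the counts were 13 higher (14.3% of all genes) and 2 lower (21.5% of all genes). Without WT replicate 3 alone the median was 0.12 in DKO and 0.03 in Rb KO. Without WT replicate 3 and DKO replicate 2, 7 members rose and 1 fell in DKO, and 1 rose and 1 fell in Rb KO. Without DKO replicate 1 alone, 4 members were called in DKO.

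The sign of these small medians and the calls of rises depended on the scaling of the arrays, although no called member changed sign. The median of the negative control probe sets was 5.83, 5.83 and 5.74 in DKO, 5.78, 5.75 and 5.76 in Rb KO and 5.52, 5.53 and 5.80 in WT. With each array centred on that median, a setting added after the data were seen, the median over all genes moved to -0.25 in DKO and -0.20 in Rb KO, and that over the members to -0.02 and -0.05. No member then rose in either mutant and 2 fell in each. Relative to the median of all genes the members stood 0.23 higher in DKO and 0.15 higher in Rb KO. Centring shifts all genes of an array alike, so it cannot change these distances. The calls below were made on the RMA values as deposited and do not test these distances. With arrays centred on their median, 5 members rose and 1 fell in DKO, and 2 rose and 1 fell in Rb KO. The DKO calls of Rpl22, Rps19, Rps20, Rps24 and Rps26 were then lost, as were the Rb KO calls of Rpl12, Rplp0 and Rps10.

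**Figure D1:**
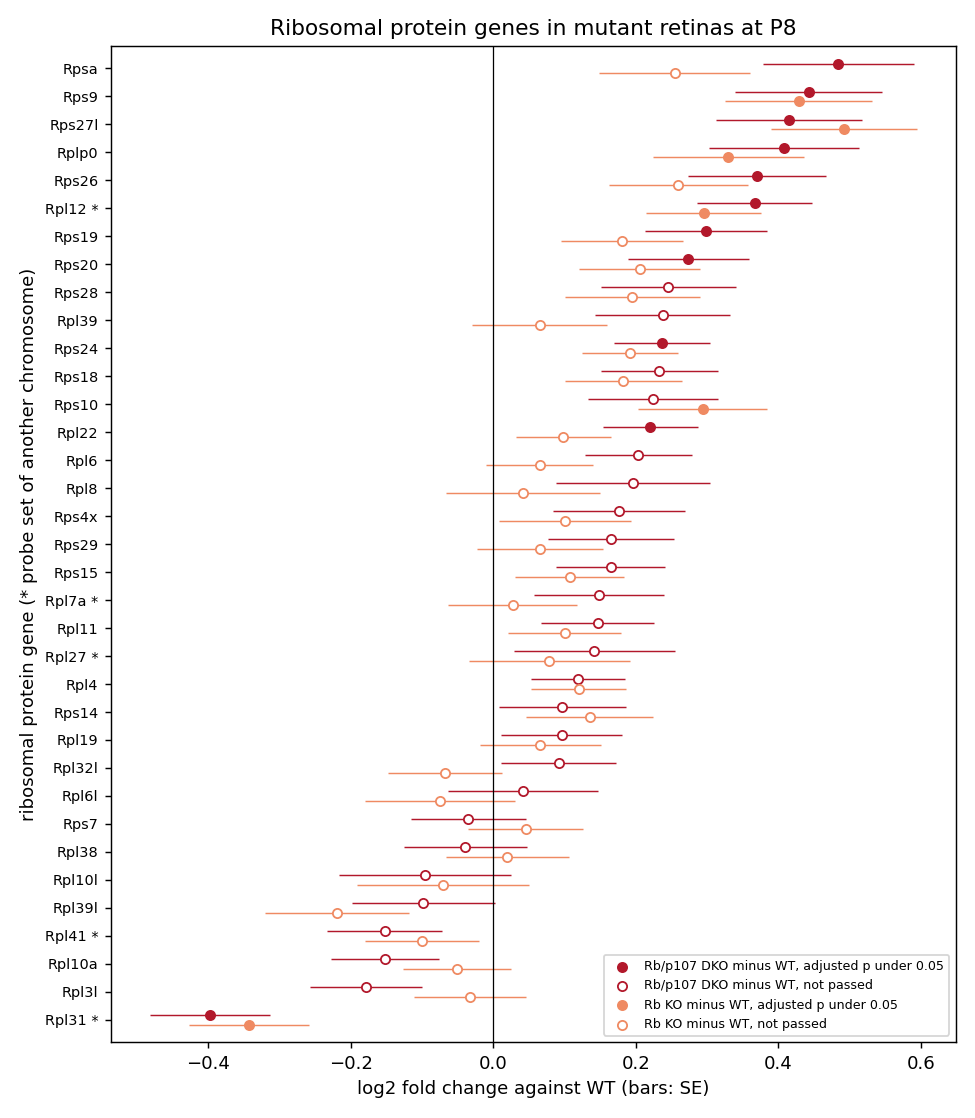
Log2 fold change against WT (horizontal axis) of each of the 35 members (rows, in the order of their DKO value), DKO in dark red above Rb KO in orange, with bars of 1 standard error and filled points for members that passed; an asterisk marks a probe set named for another chromosome. Most points lie right of the line at 0, 27 of 35 in each mutant, and Rpl31 alone passed on the left of it.

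The genes of the small subunit held most of the rises. Of its 15 members, 7 rose in DKO and 3 in Rb KO, none fell in either, and the median log2 fold change was 0.24 in DKO and 0.19 in Rb KO. Of the 20 large-subunit members 3 rose and 1 fell in DKO, with a median of 0.11, and 2 rose and 1 fell in Rb KO, with a median of 0.03. Over all genes 12.2% rose in DKO and 10.2% in Rb KO, so the large-subunit counts were near the background. Rps19, one of the 7 small-subunit genes called in DKO, was a background reading. The difference between the subunits was not tested, and the 2 lists differ in makeup. The large-subunit list holds Rpl3l, Rpl10l, Rpl39l and Rpl11, background readings in all 9 arrays, and Rpl6l, listed as a pseudogene. It also holds all 5 members read by a probe set named for another chromosome. In the small-subunit list Rps14 and Rps28 were also background readings in all 9 arrays.

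Rpsa encodes a small-subunit protein that is also known as the precursor of the laminin receptor. It read 10.56, 10.31 and 10.51 in DKO, 10.33, 10.23 and 10.14 in Rb KO and 10.01, 10.14 and 9.78 in WT. Every DKO array lay above every WT array, while the highest WT array reached the lowest Rb KO array. Rpsa rose by 0.48 in DKO against WT (SE 0.106, limma adjusted p = 0.00573, 1.40-fold), the largest rise among the members in that comparison. In Rb KO against WT its log2 fold change was 0.25 (SE 0.106, limma adjusted p = 0.108).

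Rps9, a protein of the body of the small subunit, read 8.87, 8.72 and 8.73 in DKO, 8.87, 8.75 and 8.65 in Rb KO and 8.36, 8.51 and 8.13 in WT. Neither mutant overlapped WT, and the mutants overlapped each other. It rose by 0.44 in DKO (SE 0.103, limma adjusted p = 0.00818, 1.36-fold) and by 0.43 in Rb KO (SE 0.103, limma adjusted p = 0.0117, 1.35-fold). Of the WT arrays 2 were above background.

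Rps27l is a paralog of Rps27 and a known target of p53 whose protein binds Mdm2. It read 8.56, 8.27 and 8.45 in DKO, 8.58, 8.54 and 8.40 in Rb KO and 8.03, 8.16 and 7.85 in WT, with all mutant arrays above all WT arrays. The log2 fold change was 0.42 in DKO (SE 0.102, limma adjusted p = 0.0109) and 0.49 in Rb KO (SE 0.102, limma adjusted p = 0.00531). Only 1 WT array was above background for this gene, with 2 of DKO and 3 of Rb KO, so these sizes were read close to background and may understate the difference. In DKO the call ended without DKO replicate 1.

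Rps26, whose protein lies where mRNA leaves the small subunit, read 12.12, 11.97 and 12.11 in DKO, 11.93, 12.04 and 11.90 in Rb KO and 11.77, 11.82 and 11.49 in WT. No mutant array overlapped WT. It rose by 0.37 in DKO (SE 0.0974, limma adjusted p = 0.0151, 1.29-fold) and stood at 0.26 in Rb KO (SE 0.0974, limma adjusted p = 0.0770). The DKO call ended in 5 of 20 other settings. Among these were the removal of DKO replicate 1 or 3, arrays centred on their median, and the mean over the gene's probe sets. In the fit to all probe sets, another Rps26 probe set, placed on chromosome 8, gave 0.41 in DKO (limma adjusted p = 0.0121) and 0.28 in Rb KO (limma adjusted p = 0.0745), and the one placed on chromosome 12 was not above background in any array.

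Rps24 and Rps20 rose in DKO by less. Rps24 read 9.15, 9.07 and 9.06 in DKO, 9.05, 9.08 and 9.01 in Rb KO and 8.91, 8.83 and 8.82 in WT, a log2 fold change of 0.24 in DKO (SE 0.0675, limma adjusted p = 0.0221) and of 0.19 in Rb KO (SE 0.0675, limma adjusted p = 0.0622). Rps20, a protein of the head of the small subunit, read 9.54, 9.42 and 9.48 in DKO, 9.42, 9.46 and 9.36 in Rb KO and 9.25, 9.33 and 9.05 in WT, a log2 fold change of 0.27 in DKO (SE 0.0845, limma adjusted p = 0.0320) and of 0.21 in Rb KO (SE 0.0845, limma adjusted p = 0.106). For both genes the mutant arrays lay above all WT arrays. Both DKO calls ended when WT replicate 3 or any 1 DKO replicate was left out, and that of Rps20 also without WT replicate 1.

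Rps10, another protein of the head, passed in Rb KO and not in DKO. It read 8.55, 8.40 and 8.51 in DKO, 8.68, 8.53 and 8.46 in Rb KO and 8.32, 8.36 and 8.12 in WT, again without overlap of either mutant with WT. The log2 fold change was 0.22 in DKO (SE 0.0909, limma adjusted p = 0.0900) and 0.29 in Rb KO (SE 0.0909, limma adjusted p = 0.0377). The difference between the mutants, -0.07 (SE 0.0909, limma adjusted p = 0.878), did not pass. The Rb KO call ended in 10 of 20 other settings, among them the removal of WT replicate 1 or 3 or of Rb KO replicate 1 or 2.

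Rps19, the gene most often mutated in human Diamond-Blackfan anaemia, passed in DKO on background readings only. It read 8.12, 7.87 and 7.98 in DKO, 7.89, 7.85 and 7.87 in Rb KO and 7.76, 7.74 and 7.57 in WT, below the percentile of the negative controls in all 9 arrays. Its fitted difference, with a limma adjusted p of 0.0226 in DKO and 0.158 in Rb KO, is therefore given without a fold. The other small-subunit members passed in neither mutant. Rps14 and Rps28 were background readings in all 9 arrays, and the log2 fold changes of Rps4x, Rps7, Rps15, Rps18 and Rps29 ran from -0.04 (Rps7) to 0.23 (Rps18) in DKO.

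**Figure D2:**
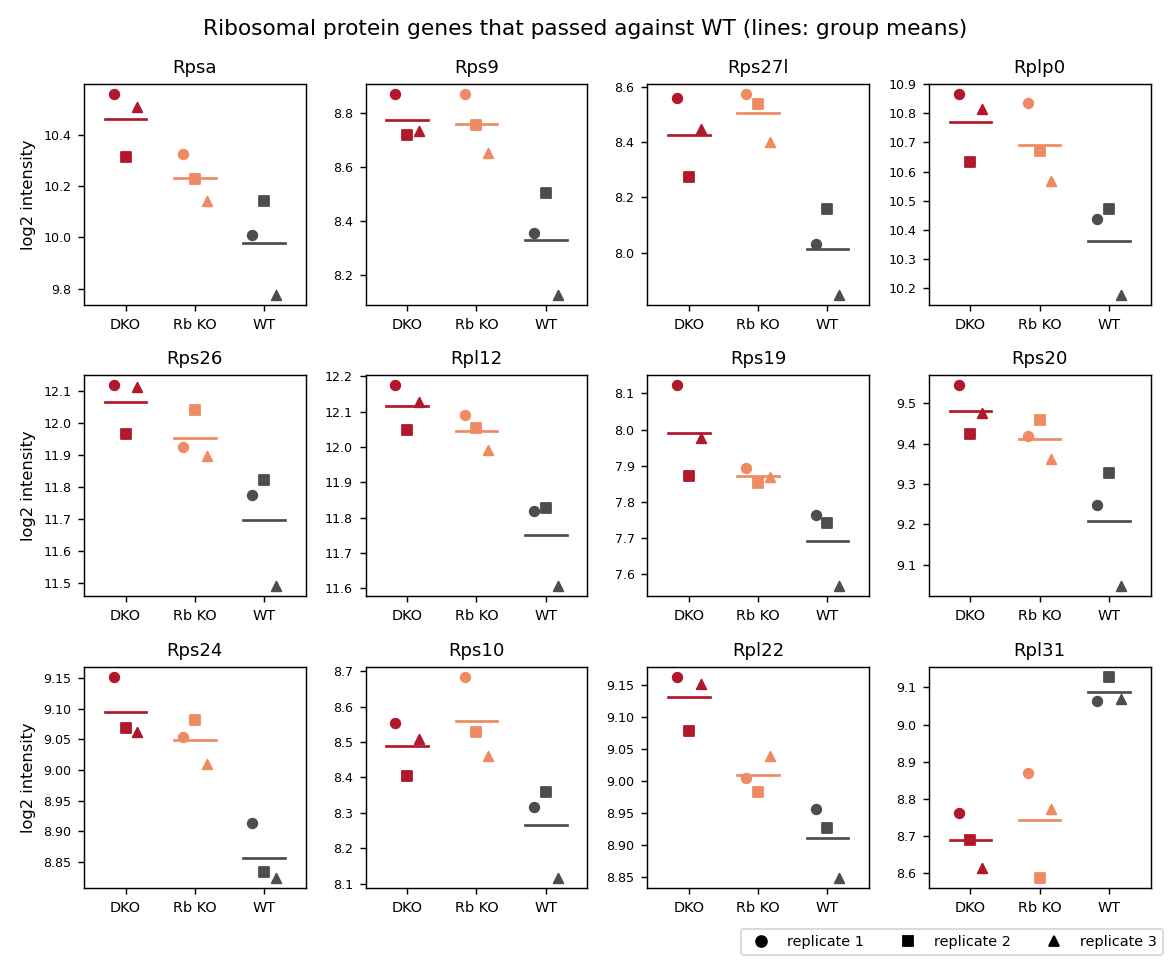
Log2 intensity (vertical axis, each panel with its own range that does not start at 0) in each of the 9 arrays, DKO left of Rb KO and WT on the right, for the members that passed in a comparison against WT; symbols mark the replicate number and lines the group means. The triangle of WT replicate 3 is the lowest WT point in every panel but that of Rpl31.

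The first bases of 6 of these genes are shown because the TOP element, a run of pyrimidines (C and T in the DNA), is the feature that ties this family to growth control. Each line is 80 bases of the coding strand, 50 before and 30 from the annotated gene start, from RefSeq on GRCm38.p6, and capitals mark the longest unbroken pyrimidine run in it, or the first where runs tie.
Rps9, chr7:3703991-3704070, + strand: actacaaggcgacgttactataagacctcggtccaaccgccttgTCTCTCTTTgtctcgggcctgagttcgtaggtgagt
Rps24, chr14:24490628-24490707, + strand: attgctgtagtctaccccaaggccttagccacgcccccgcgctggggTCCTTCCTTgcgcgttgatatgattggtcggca
Rps26, chr10:128626477-128626556, - strand: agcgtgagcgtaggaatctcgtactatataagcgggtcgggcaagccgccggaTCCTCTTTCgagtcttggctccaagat
Rps10, chr17:27635215-27635294, - strand: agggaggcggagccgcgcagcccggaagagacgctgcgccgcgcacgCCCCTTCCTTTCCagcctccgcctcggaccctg
Rps27l, chr9:66946036-66946115, + strand: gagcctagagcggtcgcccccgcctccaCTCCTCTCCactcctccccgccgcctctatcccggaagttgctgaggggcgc
Rpsa, chr9:120127716-120127795, + strand: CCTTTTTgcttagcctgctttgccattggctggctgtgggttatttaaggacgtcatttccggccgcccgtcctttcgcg
The run spans the annotated start in Rps9, Rps24 and Rps10, where it is 9, 9 and 13 bases long. Among called members not shown, Rps19, Rplp0 and Rpl22 have longest runs of 6, 7 and 14 bases, and none of these spans the start. In Rps27l and Rpsa the run in capitals lies before the annotated start and so outside the mRNA as annotated. In these 2 genes another, unmarked run of the same window is as long as the one in capitals.

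For 30 members the RefSeq promoter table held a promoter. Their longest pyrimidine run in such windows had a median of 9 bases, beside 6 bases over all 27025 promoters. As 50 of the 80 bases lie before the annotated start, such a run need not be transcribed. A run of at least 8 bases stood in 17 of 30 members (56.7%), beside 30.2% of all promoters, and an annotated start at C with a run of at least 5 bases stood in 4 (13.3%), beside 2.49%. Motifs were searched as exact letters on both strands of 300 bases, 250 before and 50 from the start. CCGGAAGT, the core bound by ETS factors, was found in 7 of 30 (23.3%, beside 4.0% of all promoters), and these were Rpl11, Rpl19, Rpl31, Rpl41, Rps18, Rps27l and Rpsa. The GC box GGGCGG was found in 14 (46.7%, beside 35.9%), TATAAA in 4 (13.3%, beside 14.2%), the E-box CACGTG in 1 (3.33%, beside 7.24%) and AAGATGGC in none (0 of 30, beside 2.88%).

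For the E2F factors, which Rb binds, 3 forms were searched, which can overlap one another. TTTCGCGC was found in Rpsa alone (3.33%, beside 0.318%), and TTTGGCGC and TTTCCCGC in no member (beside 0.537% and 1.11%). A match of letters is a description and does not show that a factor binds.

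Among proteins of the large subunit, Rplp0 encodes the base of the stalk that recruits elongation factors. It read 10.87, 10.63 and 10.81 in DKO, 10.84, 10.67 and 10.57 in Rb KO and 10.44, 10.47 and 10.18 in WT. Neither mutant overlapped WT. It rose by 0.41 in DKO (SE 0.106, limma adjusted p = 0.0140, 1.33-fold) and by 0.33 in Rb KO (SE 0.106, limma adjusted p = 0.0433, 1.26-fold). The DKO call ended without DKO replicate 1 or 3, and the Rb KO call ended in 10 of 20 other settings, among them the removal of WT replicate 1 or 3.

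Rpl22, which is known for a role in T cell development in mice, read 9.16, 9.08 and 9.15 in DKO, 9.0, 8.98 and 9.04 in Rb KO and 8.96, 8.93 and 8.85 in WT. All DKO arrays were above all Rb KO arrays, and these above all WT arrays. It rose by 0.22 in DKO (SE 0.0673, limma adjusted p = 0.0303, 1.17-fold), which was no longer called once WT replicate 3 or any 1 DKO replicate was removed, and stood at 0.10 in Rb KO (SE 0.0673, limma adjusted p = 0.339).

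For 5 members, Rpl7a, Rpl12, Rpl27, Rpl31 and Rpl41, the brightest probe set was named for another chromosome than that of the gene in the RefSeq table. Among all probe sets that could be compared, 99.6% were named for the chromosome of their gene. Such probe sets may read copies elsewhere in the genome, which was not tested, and the values of these 5 genes are uncertain in that respect. The rise of Rpl12 belongs to them, and so does the fall of Rpl31, which is the fall called in each mutant.

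Rpl12, at the stalk base, was read by a probe set placed on chromosome 10, while the gene lies on chromosome 2. It read 12.18, 12.05 and 12.13 in DKO, 12.09, 12.05 and 11.99 in Rb KO and 11.82, 11.83 and 11.61 in WT, without overlap. The log2 fold change was 0.37 in DKO (SE 0.0811, limma adjusted p = 0.00608) and 0.30 in Rb KO (SE 0.0811, limma adjusted p = 0.0222), and the Rb KO call was lost on removal of WT replicate 3, of Rb KO replicate 1 or of Rb KO replicate 2.

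Rpl31, near the exit of the peptide tunnel, was read by a probe set placed on chromosome 7, while the gene lies on chromosome 1. It read 8.76, 8.69 and 8.61 in DKO, 8.87, 8.59 and 8.77 in Rb KO and 9.06, 9.13 and 9.07 in WT, every mutant array being below every WT array. It fell by 0.40 in DKO (SE 0.0847, limma adjusted p = 0.00495) and by 0.34 in Rb KO (SE 0.0847, limma adjusted p = 0.0133). The Rb KO call ended without Rb KO replicate 2. With only probe sets named for the gene's own chromosome, a setting added after the data were seen, 32 members were left, of which 9 rose in DKO and 4 in Rb KO and none fell in either.

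Rpl41, which encodes one of the smallest ribosomal proteins, differed in sign between its probe sets. The brightest, placed on chromosome 14, read 11.43, 11.33 and 11.53 in DKO, 11.55, 11.43 and 11.47 in Rb KO and 11.68, 11.56 and 11.5 in WT, with overlap of both mutants with WT. It gave -0.15 in DKO and -0.10 in Rb KO, and the one on its own chromosome 10 gave 0.08 and 0.11, in a fit to all probe sets. None of these values passed (limma adjusted p = 0.266 to 0.633).

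Rpl10a, a protein of the large subunit that did not pass in either mutant, read 10.48, 10.42 and 10.48 in DKO, 10.66, 10.47 and 10.56 in Rb KO and 10.64, 10.67 and 10.53 in WT, all DKO arrays being below all WT arrays, with a log2 fold change of -0.15 (SE 0.0757, limma adjusted p = 0.163) in DKO and of -0.05 (SE 0.0757, limma adjusted p = 0.690) in Rb KO. The remaining large-subunit members, Rpl4, Rpl6, Rpl6l, Rpl7a, Rpl8, Rpl11, Rpl19, Rpl27, Rpl32l, Rpl38 and Rpl39, did not pass in either mutant. Rpl11 was a background reading in all 9 arrays and Rpl6 in 8 of 9. For the others, log2 fold changes ran from -0.04 (Rpl38) to 0.24 (Rpl39) in DKO and from -0.08 (Rpl6l) to 0.12 (Rpl4) in Rb KO. The RefSeq table lists Rpl6l as a pseudogene.

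**Figure D3:**
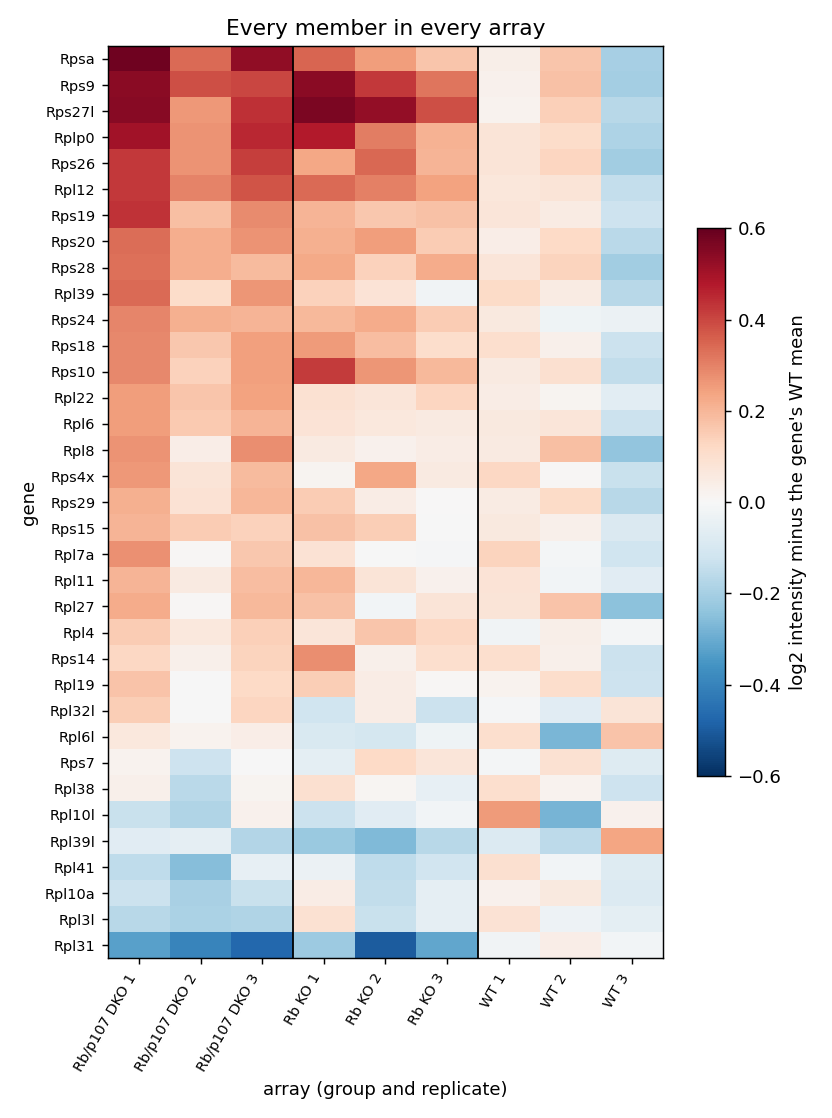
Each of the 35 members (rows, in the order of their DKO log2 fold change) in each array (columns, DKO, then Rb KO, then WT), coloured by its log2 intensity minus its mean over the WT arrays, red higher and blue lower. The column of WT replicate 3 is blue in most rows, being the lowest of all 9 arrays in 24 of 35 members, and DKO replicate 2 is paler than the other DKO columns in the upper rows.

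The members averaged 5.48 to 12.91 over the 9 arrays, with a median of 9.40, beside 6.84 over all genes. Readings of different probe sets depend on their bases and are no ranking of mRNA amounts. In all, 28 members were above background in at least 1 array and 23 in all 9, while Rps14, Rps19, Rps28, Rpl3l, Rpl10l, Rpl11 and Rpl39l never were. The brightest were Rpl4, Rps7 and Rps26. Rpl4 read 12.98, 12.89 and 12.97 in DKO, 12.90, 12.99 and 12.95 in Rb KO and 12.80, 12.86 and 12.81 in WT, with a log2 fold change of 0.12 in each mutant (SE 0.0666, limma adjusted p = 0.215 in DKO and 0.233 in Rb KO), although neither overlapped WT. Rps7 read 12.23, 12.09 and 12.21 in DKO, 12.15, 12.33 and 12.29 in Rb KO and 12.20, 12.30 and 12.13 in WT, with overlap between the groups, and did not pass.

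The dimmest were the paralogs Rpl39l, Rpl3l and Rpl10l. Rpl3l is known from striated muscle, and Rpl10l and Rpl39l from the testis. Rpl39l read 5.52, 5.54 and 5.41 in DKO, 5.37, 5.32 and 5.42 in Rb KO and 5.51, 5.43 and 5.83 in WT. Rpl3l read 5.95, 5.93 and 5.94 in DKO, 6.21, 5.98 and 6.07 in Rb KO and 6.21, 6.09 and 6.06 in WT. Rpl10l read 6.55, 6.50 and 6.70 in DKO, 6.55, 6.61 and 6.66 in Rb KO and 6.93, 6.4 and 6.70 in WT. As all are background readings, no level or fold of them was measured. Among the 5 measured genes of a list of paralogs, Rps27l rose in both mutants and none fell. Rpl7l1, which belongs to that list and is no member, averaged 9.67 ± 0.054 in DKO, 9.66 ± 0.076 in Rb KO and 9.70 ± 0.155 in WT (SD, n = 3 each).

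In humans, mutations of several ribosomal protein genes cause Diamond-Blackfan anaemia. Of 13 measured genes of that disease, 11 of them members, 4 rose in DKO (Rps26, Rps24, Rps20 and, on background readings, Rps19) and 1 in Rb KO (Rps10), while Rpl31 and Tsr2 fell in both. Of all genes 12.2% rose in DKO and 10.2% in Rb KO. None of the 13 rose in either mutant with arrays centred on their median or on their negative controls, where 2 fell in each. Tsr2, which encodes a chaperone of the Rps26 protein and is no member, averaged 9.44 ± 0.050 in DKO, 9.30 ± 0.20 in Rb KO and 9.84 ± 0.090 in WT (SD, n = 3 each). It fell by 0.40 in DKO (SE 0.101, limma adjusted p = 0.0128) and by 0.54 in Rb KO (SE 0.101, limma adjusted p = 0.00299). Of the 4 measured members whose proteins are known to bind Mdm2, the ubiquitin ligase of p53, Rps27l rose in both mutants, and Rpl11, Rps7 and Rps14 did not pass.

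Between the mutants no member passed. In DKO against Rb KO 0 of 35 members were called, beside 2.55% of all genes (1.34% higher and 1.21% lower), and none had an unadjusted limma p under 0.05. The count was also 0 in each of the 20 other settings. Among the 28 members above background in at least 1 array the log2 fold changes ran from -0.10 (Rpl10a) to 0.23 (Rpsa). Over all 35 members their median was 0.06, beside 0.00 over all genes, with a median SE of 0.0866. Rpsa came nearest, with an unadjusted p of 0.0541 (limma adjusted p = 0.383). Arrays did not overlap in 3 members with DKO higher (11.3% of all genes), which were Rpl6, Rpl6l and Rpl22, and in 1 with DKO lower (10.9% of all genes), which was Rpl3l. Rpl6 and Rpl3l were background readings in both mutants. With 3 arrays a group, differences between the mutants of the size of these SEs were not detectable.

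Ribosomal protein genes have many processed copies in the mouse genome, and the array carries probe sets for them. Among 45 probe sets that list several genes with a ribosomal protein gene among them, 12 rose and none fell in DKO and none rose and 1 fell in Rb KO, in a fit to all 52917 probe sets of transcripts. Their median log2 fold change was 0.17 in DKO and 0.10 in Rb KO. Among 160 probe sets that list a ribosomal pseudogene symbol only, 47 rose and none fell in DKO, with a median of 0.16, and 2 rose and 3 fell in Rb KO, with a median of 0.10. In the same fit 9.49% of all probe sets rose and 10.3% fell in DKO, and 6.63% rose and 7.86% fell in Rb KO. Probe sets of genes and of their copies can read the same RNA, so these classes are not separate evidence from the members. Within the pseudogene class some probe sets gave identical values, so its counts are not of separate measurements either.

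**Figure D4:**
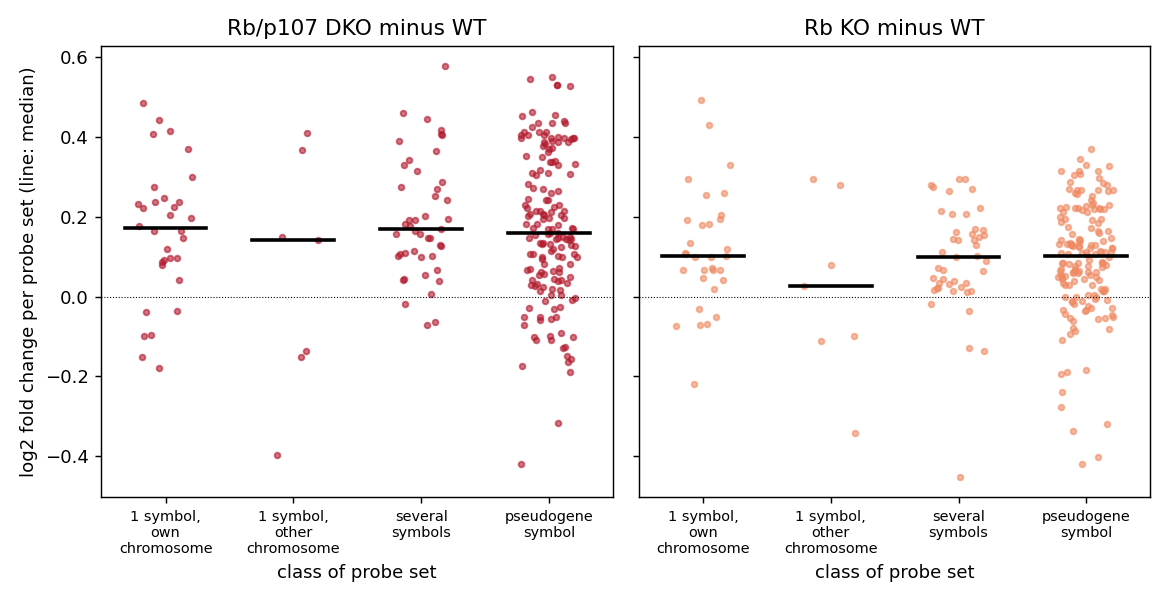
Log2 fold change against WT (vertical axis) of each probe set (points, spread sideways at random) in 4 classes, DKO in the left panel and Rb KO in the right; thick lines mark the class medians and the dotted line 0. In DKO the medians of the classes with several symbols (0.17) and with pseudogene symbols only (0.16) lie beside that of single-symbol probe sets on their own chromosome (0.17).

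Genes that build ribosomes also rose in part. Of 54 measured genes of ribosome biogenesis, 19 rose and 3 fell in DKO and 13 rose and 2 fell in Rb KO. The shares over all genes were 12.2% higher and 17.2% lower in DKO and 10.2% and 14.3% in Rb KO. The medians of the list were 0.12 and 0.10, which moved to -0.06 and -0.05 with arrays centred on the negative controls. Under that scaling 4 rose and 9 fell in DKO and 2 rose and 4 fell in Rb KO. Tcof1, the treacle protein of the nucleolus, rose by 0.69 in DKO (SE 0.0817, limma adjusted p = 1.22e-04) and by 0.58 in Rb KO (SE 0.0817, limma adjusted p = 4.9e-04). Fbl, the methyltransferase fibrillarin, averaged 9.68 ± 0.099 in DKO, 9.54 ± 0.11 in Rb KO and 9.09 ± 0.090 in WT (SD, n = 3 each) and rose by 0.60 and by 0.45 against WT. Noc2l rose by 0.54 in DKO, and Dkc1, the pseudouridine synthase dyskerin, by 0.58 in Rb KO. Rrp1b fell by 0.66 in DKO and by 0.70 in Rb KO, Bysl by 0.44 and 0.35, and Pes1 by 0.29 in DKO, with -0.18 in Rb KO (limma adjusted p = 0.156).

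Of 26 measured genes of transcription by RNA polymerases I and III, 1 rose and 2 fell in DKO and 2 rose and none fell in Rb KO, where 29.4% and 24.4% of all genes were called. With arrays centred on the negative controls none rose and 6 fell in DKO, and none rose and 1 fell in Rb KO. Gtf3a, the factor of the 5S RNA genes, rose by 0.37 in DKO and by 0.40 in Rb KO (SE 0.0851, limma adjusted p = 0.00755 and 0.00586), and Bdp1 rose by 0.27 in Rb KO. Brf1 fell by 0.34 and Gtf3c1 by 0.26 in DKO. In DKO against Rb KO neither passed (limma adjusted p = 0.141 for Brf1 and 0.234 for Gtf3c1).

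Of 32 measured translation factors 6 rose and 2 fell in DKO and 1 rose and 3 fell in Rb KO, with medians of 0.03 and 0.00, which moved to -0.16 and -0.14 with centring on the negative controls. Under that scaling none rose and 5 fell in DKO, and 1 rose and 3 fell in Rb KO. Of all genes 29.4% were called in DKO and 24.4% in Rb KO. Eif3a, the largest subunit of initiation factor 3, rose by 0.48 in DKO and by 0.60 in Rb KO (SE 0.0808, limma adjusted p = 0.00117 and 4.03e-04). Eif4a1 rose by 0.39 and Eef1a1, which brings transfer RNA to the ribosome, by 0.21 in DKO. Eif1a fell by 0.74 in DKO and by 0.50 in Rb KO, Eif2b3 fell by 0.32 in Rb KO, and Eif2b4 passed as lower in both, with 1 of its 9 arrays above background.

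Genes other than ribosomal proteins whose mRNAs are known to carry the TOP element were measured in 16 cases. Of these 6 rose in DKO and 2 in Rb KO, and none fell. The rises were 37.5% and 12.5% of the list, beside 12.2% and 10.2% of all genes, so the Rb KO count was near the background. Eef1a1 and Eif3h are also counted among the translation factors, and Npm1 among the genes of ribosome biogenesis. With arrays centred on the negative controls none of the 16 passed in either mutant. Npm1, the nucleolar protein nucleophosmin, rose by 0.49 in DKO and by 0.43 in Rb KO (SE 0.0913, limma adjusted p = 0.00218 and 0.00602). Pabpc1, the poly(A)-binding protein, rose by 0.29 in DKO, and Tpt1 by 0.31 in DKO and by 0.24 in Rb KO. The medians were 0.19 and 0.14, and moved to 0.01 and -0.01 with centring on the negative controls.

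Of 5 measured host genes of small nucleolar RNAs, 1 rose in both mutants and none fell, while 12.2% of all genes rose in DKO and 10.2% in Rb KO. Snhg5, a non-coding TOP transcript that carries small nucleolar RNAs in its introns, read 10.65, 10.40 and 10.44 in DKO, 9.85, 10 and 9.79 in Rb KO and 8.79, 8.70 and 8.66 in WT. The 3 groups did not overlap. It rose by 1.78 in DKO (SE 0.0891, limma adjusted p = 2.08e-07) and by 1.17 in Rb KO (SE 0.0891, limma adjusted p = 7.97e-06), and DKO stood 0.62 above Rb KO (SE 0.0891, limma adjusted p = 0.00500). The other 4 measured hosts were not above background in any array.

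Among 26 measured regulators of growth, 9 rose and 4 fell in DKO and 8 rose and 1 fell in Rb KO. The shares over all genes were 12.2% higher and 17.2% lower in DKO and 10.2% and 14.3% in Rb KO. With centring on the negative controls 6 of the 26 rose and 8 fell in DKO, and 5 rose and 2 fell in Rb KO. Myc, which drives ribosome production in many tissues, was not above background in WT and read 8.56 ± 0.060 in DKO and 8.78 ± 0.13 in Rb KO (SD, n = 3 each). These were at least 1.33-fold higher in DKO than in WT (limma adjusted p = 1.93e-05) and at least 1.55-fold higher in Rb KO (limma adjusted p = 5.97e-06), each bound being taken against the larger of the background percentile and the reading in every WT array. Mycn was at least 1.24-fold higher in DKO and at least 1.31-fold higher in Rb KO. Mxd3, a partner of Max known from dividing cells, was at least 1.37-fold higher in DKO, and Mdm2 rose by 0.86 in DKO and by 0.80 in Rb KO. Max, the common partner of Myc and the Mxd proteins, fell by 0.78 in DKO and by 0.60 in Rb KO, while Mxd1 fell by 0.39 and Mlst8, a subunit of the mTOR complexes, by 0.38 in DKO.

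The proteins of the mitochondrial ribosome, a separate machine, showed no shift in median from all genes. Of 62 measured genes 4 rose and 7 fell in DKO and 3 rose and 5 fell in Rb KO, with medians of -0.06 and -0.05, beside -0.06 and -0.05 over all genes, of which 29.4% and 24.4% were called. With arrays centred on the negative controls none rose and 16 fell in DKO, and none rose and 6 fell in Rb KO. Mrps10 rose by 0.29 and Mrpl18 by 0.28 in DKO, and Mrpl17 passed as higher there on background readings. In Rb KO Mrpl19 rose by 0.32, Mrps15 by 0.28 and Mrpl18 by 0.23. Mrpl49 fell by 0.45 in DKO. Mrpl20 and Mrpl48 were at least 1.19-fold and at least 1.02-fold lower in DKO than in WT, and Mrpl48 was at least 1.02-fold lower in Rb KO, where Mrpl2 fell by 0.34 and Mrps36 passed as lower on background readings. None of the genes named from these lists changed sign under quantile normalization or with arrays centred on their median or on their negative controls, although calls were lost.

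Markers of several cell types moved with genotype beside the ribosomal protein genes. Cycling-cell markers averaged 10.36 to 10.60 in DKO, 10.03 to 10.46 in Rb KO and 7.01 to 7.28 in WT. Of 9 measured microglia markers 5 rose in DKO and 6 in Rb KO, and they averaged 7.70 to 8.06 in DKO, 7.46 to 8.00 in Rb KO and 7.13 to 7.25 in WT. Only 3 of these 9 were above background in any array, and with arrays centred on the negative controls 4 rose in DKO and 3 in Rb KO. Bipolar cell markers fell in 9 of 10 in DKO and in 10 of 10 in Rb KO. Of 10 amacrine and ganglion cell markers 8 fell and 1 rose in each mutant. Muller glia markers were mixed: of 9 measured, 1 rose and 4 fell in DKO, and 3 rose and 4 fell in Rb KO. Endothelial markers fell in 9 of 11 and pigment epithelium markers in 8 of 9 in each mutant, with 7 of the 11 and 5 of the 9 above background in at least 1 array. Lens markers, 5 of 9 above background, rose in 4 of 9 in DKO and in none of 9 in Rb KO, and averaged 7.59 to 9.04 in DKO, 7.06 to 7.39 in Rb KO and 6.95 to 7.18 in WT. The shares over all genes were 12.2% higher and 17.2% lower in DKO and 10.2% and 14.3% in Rb KO. The part of these marker shifts in the values of the ribosomal protein genes was not tested.

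**Figure D5:**
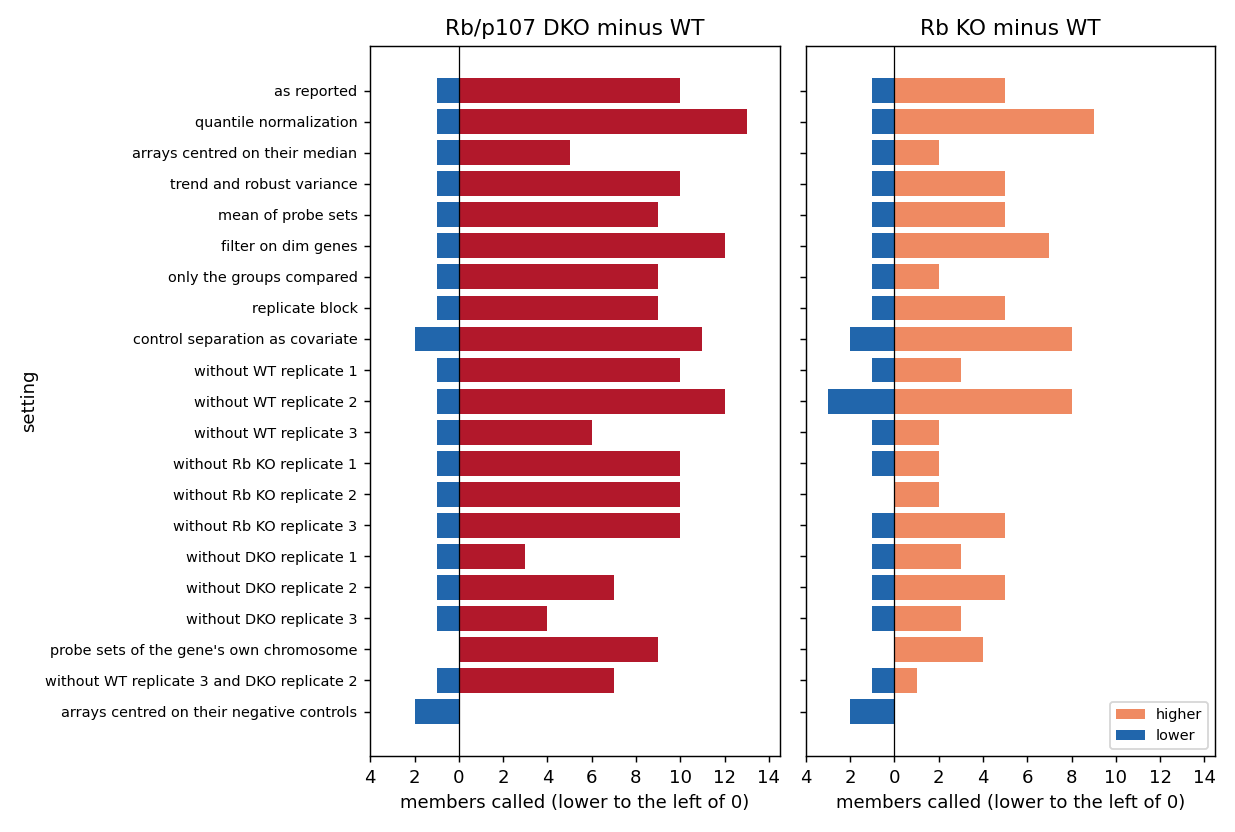
Number of members called (horizontal axis) under each processing setting (rows), DKO against WT in the left panel and Rb KO against WT in the right, with members called lower in blue to the left of 0 and members called higher in dark red or orange to the right. Totals ran from 2 to 14 in DKO and from 2 to 11 in Rb KO, and no member was called higher with arrays centred on their negative controls.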

How the data were processed

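Whole-retina RNA of 9 samples was measured on 1 array each. The deposited values are log2 intensities per probe set, which the authors made with RMA (robust multi-array averaging) according to the submitters' processing notes; neither software version nor annotation build is given in the sources used here. Symbols came from the platform annotation: of 52917 transcript probe sets, 24646 had 1 symbol and 1795 several, which were left out of the gene table. Each of 24202 genes was read at the probe set with the highest mean over the 9 arrays, with no filter. Groups were compared with limma 3.58.1 under R 4.3.3 on group means of all arrays (6 residual and 4.70 prior degrees of freedom, no trend, not robust), with Benjamini-Hochberg adjustment over all genes and a threshold of 0.05. The code was tested on simulated data. The number of arrays limits the precision. Plots were made in Python 3.11.15 using matplotlib 3.10.9.

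The members and gene lists were chosen with earlier results of these data known, as was the rule for naming genes: in each comparison against WT up to 10 rising and 10 falling called members of lowest p, the 3 largest and 3 smallest differences, the 3 brightest and 3 dimmest members, all measured paralogs, and from other lists up to 3 rising and 3 falling called genes of lowest p. Alternatives were quantile normalization, centring, variance settings, probe set choice, a filter on dim genes, a covariate for control separation, a replicate block and leaving out arrays.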

Additional observations from a re-analysis of the deposited data

How the results depend on the processing

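With 3 arrays a group and differences under 0.50, many calls lay near the threshold. The count of members called in DKO against WT (11) ranged from 4 to 13 when 1 array was left out, the lowest counts coming without DKO replicate 1 (4), DKO replicate 3 (5) and WT replicate 3 (7). In Rb KO against WT (6 called) it ranged from 2 to 11: 2 without Rb KO replicate 2, 3 without Rb KO replicate 1 or WT replicate 3, and 11 without WT replicate 2. With arrays centred on their median the counts were 6 in DKO and 3 in Rb KO, and with the negative controls as centre 2 in each, with medians of -0.0208 in DKO and -0.0508 in Rb KO. Rb KO counts were 10 with quantile normalization, 3 with only the groups compared, 10 with control separation as a covariate and 2 without WT replicate 3 and DKO replicate 2. The covariate moved the DKO median to 0.27. The cause of these changes was not tested. When 1 array was left out the medians ranged from 0.12 to 0.22 in DKO and from 0.03 to 0.12 in Rb KO, each lowest without WT replicate 3. Of 335 values of the 17 named results, 260 kept their call and 0 changed sign. With replicate number as a block, 10 members were called in DKO and 6 in Rb KO; the call of Rpl22 in DKO ended (limma adjusted p = 0.0555). Same-numbered arrays correlated at -0.16 to 0.15 in their deviations from the group means, so the numbers were not taken as pairing the samples.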
